A study of Homo sapiens with 6 samples.

Results

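The stress-response bZIP transcription factors ATF3, ATF4, ATF5, ATF6, CEBPB, CEBPG and DDIT3, together with the tribbles pseudokinases TRIB1, TRIB2 and TRIB3, were compared between carfilzomib-resistant and parental LP-1 multiple myeloma cells. The members are these 10 genes of 19775, and they were read through the 23 probe sets, of 54613 in all, whose annotation names a single gene that is one of them. No probe set named a member together with other genes. LP-1 is an established human multiple myeloma cell line, and LP-1/Cfz is its derivative that was selected in stepwise increasing concentrations of carfilzomib, a proteasome inhibitor. The labels describe LP-1/Cfz as resistant to 12 nM carfilzomib and give 1 week of growth without drug before RNA was taken, so both groups were drug-free, while parental LP-1 cells had never been selected. Both were grown in medium with 4% fetal bovine serum according to the labels (the general culture methods of the study give a higher serum content), and total RNA of 3 samples per group was hybridised to Affymetrix Human Genome U133 Plus 2.0 arrays, 1 array per sample. LP-1/Cfz is 1 selected line, and the labels do not say that the triplicates were separate cultures, so what the p-values rest on is how far these samples scatter, and that scatter may be technical.

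Basic leucine zipper (bZIP) factors bind DNA as dimers, and those studied here act in the integrated stress response and the unfolded protein response. When kinases such as PERK or GCN2 phosphorylate the translation factor eIF2α, general protein synthesis slows while the ATF4 message, which carries upstream open reading frames, is translated. ATF4 then pairs with C/EBP partners and induces genes of amino acid supply and stress defence, among them ATF3, DDIT3 (which encodes CHOP) and TRIB3. ATF6 belongs to another branch, in which the protein is cut from the membrane of the Golgi apparatus and induces chaperones of the endoplasmic reticulum. Tribbles proteins are pseudokinases that bring the ubiquitin ligase COP1 to substrates such as C/EBP factors, and TRIB3 is known to dampen ATF4 and CHOP activity. Multiple myeloma is a malignancy of plasma cells, which secrete much immunoglobulin.

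The promoter stretches shown are those of the members that hold the composite element to which ATF4 and C/EBP factors bind, or the core that AP-1 factors bind. Several of the bZIP members are such factors themselves. RefSeq promoter windows of 250 bases before and 50 bases after a start site (GRCh38.p14) were at hand for 9 of the 10 members. All elements were searched on both strands, and the motif of the composite element was TGATGNAA, where N is any base. It was found in windows of 2 of these 9 genes, against 4.46% of all 27305 genes in the table. The ATF3 stretch lies at chr1:212565171-212565268 on the plus strand and the CEBPG stretch at chr19:33374060-33374089 on the plus strand, both upstream of a start site, with the match in capitals.
ATF3: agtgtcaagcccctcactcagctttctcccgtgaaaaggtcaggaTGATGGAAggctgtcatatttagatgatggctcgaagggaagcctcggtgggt
CEBPG: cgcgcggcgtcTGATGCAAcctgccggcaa
The core TGANTCA, shared by AP-1 and NF-E2 type factors such as Nrf2, was found in 2 of the 9 genes, ATF5 and DDIT3, against 9.37% of all genes. The ATF5 stretch is chr19:49928673-49928769 on the plus strand and the DDIT3 stretch chr12:57520704-57520767 on the minus strand, again with the match in capitals.
ATF5: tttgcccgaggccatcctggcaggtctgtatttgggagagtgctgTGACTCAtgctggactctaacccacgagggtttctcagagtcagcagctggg
DDIT3: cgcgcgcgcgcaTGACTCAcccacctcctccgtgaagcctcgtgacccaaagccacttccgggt
The longer antioxidant response element core TGACNNNGC matched in TRIB3 and CEBPB (2 of 9, against 16.1% of all genes) and the CCAAT box in 4 of 9 (39.7% of all genes). The palindromic cyclic AMP response element TGACGTCA matched in none of the 9 genes (2.25% of all genes). The same held for the ER stress response element (0.0916% of all genes), which contains a CCAAT box, and for the ER stress response element II (0.0696%). A match describes the letters of the window and shows no binding.

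The deposited log2 values had been centred probe set by probe set, and which baseline was used is not given, so the values hold differences among the arrays and no expression levels. For the same reason the presence of plasma cell markers, or the absence of markers of other cells, could not be checked from these values. LP-1/Cfz replicate 3 had a wider spread of values than the other arrays, with an interquartile range of 0.338 against 0.23 to 0.264. The limma test was run on all 54613 probe sets with Benjamini-Hochberg adjustment, and "rose" or "fell" is used for an adjusted p under 0.05. The 19775 genes, each the mean of the probe sets that name it alone, were tested likewise. With 3 against 3 arrays, an exact permutation test of 1 probe set cannot give a p below 0.1.

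Among the 23 probe sets, 3 rose in LP-1/Cfz cells, all of ATF3 or ATF4, and 7 fell, all of ATF5, TRIB1, TRIB2 or TRIB3. Of the 7 tribbles probe sets, 5 fell and 2 did not pass, 1 each of TRIB1 and TRIB2. Of all probe sets, 4.25% rose and 6.76% fell, so that 11% passed in either direction, against 43.5% of the member probe sets. Groups did not overlap for 18 of the 23 probe sets, 9 with LP-1/Cfz above LP-1 and 9 below, where 14.2% of all probe sets lay above, 16.5% below and 30.7% either way without overlap. The median of the absolute log2 fold change was 0.191 over the member probe sets and 0.105 over all. Changes were mostly small, and 1 of 23, an ATF3 probe set, reached the 1.7-fold difference between group means that the study used as a cutoff, as did 1.59% of all probe sets (0.452% upwards and 1.14% downwards). The members were chosen with earlier results of these arrays known, so these counts describe them and are no evidence about the family.

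**Figure D1:**
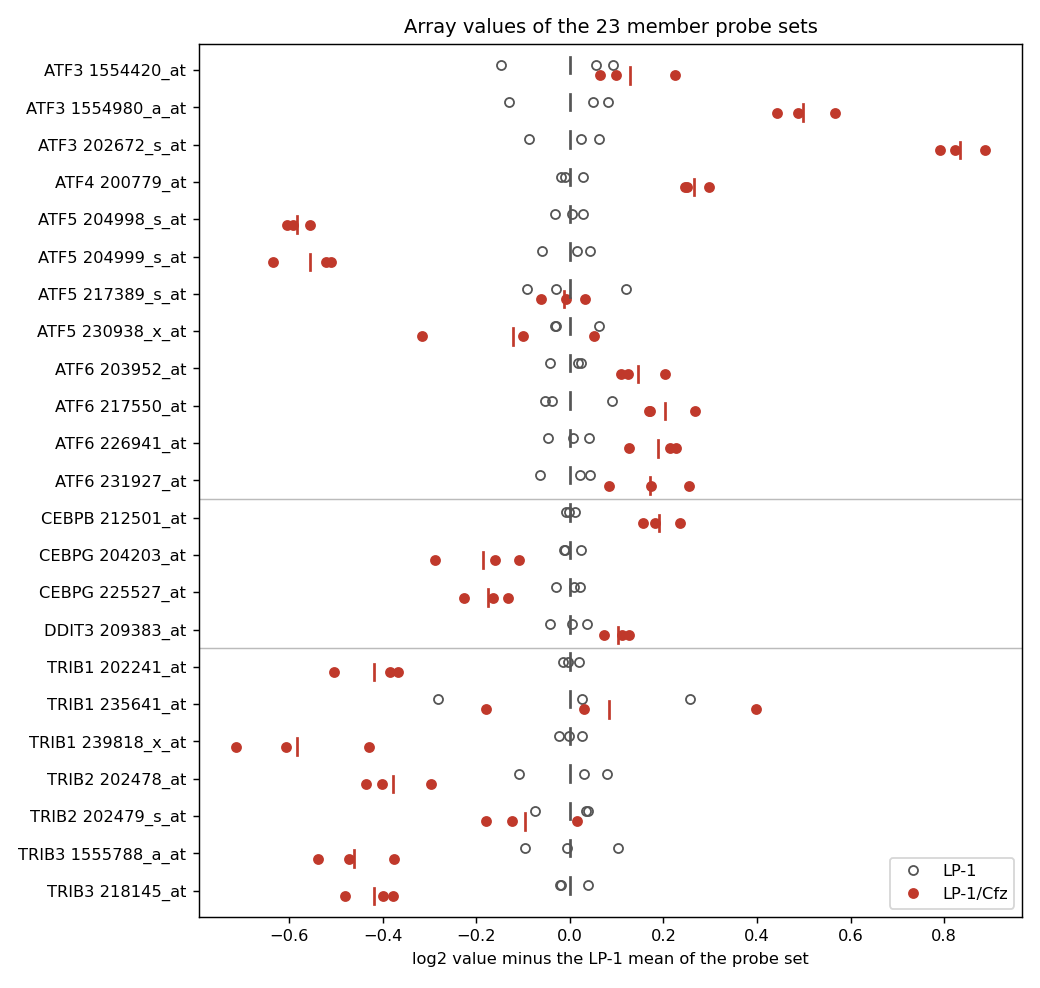
Values of the 23 member probe sets on the 3 LP-1 arrays (open circles) and the 3 LP-1/Cfz arrays (filled circles). Each log2 value is plotted along the horizontal axis after subtraction of the parental mean, vertical ticks mark group means, and grey lines separate ATF factors, C/EBP factors and tribbles. LP-1/Cfz lay above LP-1 on ATF3 202672_s_at and below it on both TRIB3 probe sets, with no overlap.

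ATF3, an immediate stress factor that ATF4 induces and that mostly represses transcription, gave the largest rise among the 23 probe sets. On probe set 202672_s_at, the log2 values were 0.16, 0.10 and 0.067 in LP-1/Cfz replicates 1 to 3 and -0.66, -0.81 and -0.70 in LP-1 replicates 1 to 3. The 3 LP-1/Cfz arrays lay together and well above the 3 parental arrays. The log2 fold change was 0.83 (standard error 0.0671, n = 3 per group, adjusted p = 0.000238 by limma), or 1.78-fold. Probe set 1554980_a_at read 0.21, 0.29 and 0.16 in LP-1/Cfz and -0.20, -0.41 and -0.23 in LP-1, again without overlap, and its log2 fold change was 0.50 (standard error 0.0771, adjusted p = 0.00536 by limma). The third probe set, 1554420_at, ranged from -0.059 to 0.10 in LP-1/Cfz and from -0.27 to -0.030 in LP-1, groups that overlap, and differed by 0.13 (log2, adjusted p = 0.407). The ATF3 probe sets all had positive differences but spanned 0.70 on the log2 scale. Neither ATF3 call was lost when any of the 6 arrays was dropped (adjusted p up to 0.00229 and 0.0233). The ATF3 gene value, the mean of its probe sets, was 0.49. Leaving out probe sets whose names end in _s_at or _x_at, here 202672_s_at, gave 0.31 (adjusted p = 0.0144 by limma).

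ATF4, the factor at the centre of the response, was read by a single probe set, 200779_at. Its values were 0.28, 0.23 and 0.23 in LP-1/Cfz and 0.0089, -0.029 and -0.038 in LP-1. All 3 LP-1/Cfz arrays were higher, and the gap between groups was several times the spread within either (SD 0.0283 and 0.0249, n = 3 each). The log2 fold change was 0.26 (standard error 0.0576, adjusted p = 0.0238 by limma), or 1.20-fold. This call was near the threshold. It was lost without LP-1/Cfz replicate 1 or 2 (adjusted p = 0.0785 and 0.0553) and without LP-1 replicate 1, 2 or 3 (0.0744, 0.0846 and 0.101), while the difference stayed between 0.25 and 0.28. In the fit over genes, which used the same ATF4 values, limma gave a smaller standard error (0.0467) and an adjusted p of 0.00711. These arrays measure RNA, and ATF4 is known to be set largely by translation, which they do not measure.

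ATF6, the membrane-bound sensor of misfolded protein in the endoplasmic reticulum, was read by 4 probe sets that gave much the same difference. The log2 fold changes were 0.20 on 217550_at, 0.19 on 226941_at, 0.17 on 231927_at and 0.15 on 203952_at, and none passed the test (adjusted p from 0.105 to 0.195 by limma). On each of them the 3 LP-1/Cfz arrays lay above the 3 parental ones. On 226941_at, for instance, the values were 0.21, 0.22 and 0.12 in LP-1/Cfz and -0.052, 0.0019 and 0.036 in LP-1. Averaged over the 4 probe sets, ATF6 had a gene log2 fold change of 0.18 (standard error 0.0486), which passed at an adjusted p of 0.0442 by limma. That call was lost when any array other than LP-1/Cfz replicate 3 was dropped, with values of 0.126 and 0.103 without LP-1/Cfz replicate 1 or 2 and of 0.129, 0.129 and 0.126 without LP-1 replicate 1, 2 or 3. It was also lost after another quantile normalization (0.0575) and after centring on array medians (0.0634).

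ATF5, a relative of ATF4 whose translation is likewise raised under stress and which is known to regulate mitochondrial stress genes, fell on 2 of its 4 probe sets. Probe set 204998_s_at read -0.31, -0.26 and -0.30 in LP-1/Cfz and 0.32, 0.30 and 0.26 in LP-1. Its companion 204999_s_at read -0.24, -0.23 and -0.35 against 0.33, 0.30 and 0.23. On both, every LP-1/Cfz array was below every parental array, and replicates lay close together. The log2 fold changes were -0.58 (standard error 0.0577, adjusted p = 0.000679 by limma) and -0.56 (standard error 0.0659, adjusted p = 0.0016), and both calls were kept whichever array was left out. The other probe sets did not show it. On 217389_s_at the groups overlapped and the log2 fold change was -0.01 (adjusted p = 0.941), and they also overlapped on 230938_x_at, at -0.12 (adjusted p = 0.502), where LP-1/Cfz ranged from -0.24 to 0.12. Averaged over all 4, ATF5 had -0.32 (standard error 0.0517, adjusted p = 0.00489 over genes). The suffix _s_at or _x_at marks probe sets with probes that can match several transcripts, so the value of such a probe set may include more than 1 transcript.

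No probe set of the C/EBP members passed the test. CEBPB, which encodes an activator that can pair with ATF4, read 0.18, 0.12 and 0.097 in LP-1/Cfz and -0.062, -0.068 and -0.049 in LP-1. These groups did not overlap, yet the log2 fold change of 0.19 (standard error 0.058) had an adjusted p of 0.0801 over probe sets by limma. Over genes the same difference passed at 0.0295. It did not pass there without LP-1/Cfz replicate 1 or 2 (0.0946 and 0.0637) or LP-1 replicate 1, 2 or 3 (0.102, 0.0957 and 0.0953). DDIT3, whose product CHOP links sustained stress to cell death, had values of 0.035, 0.019 and -0.019 in LP-1/Cfz and -0.087, -0.13 and -0.054 in LP-1. The difference was 0.10 (standard error 0.059, adjusted p = 0.34 over probe sets and 0.203 over genes), so DDIT3 did not pass on either scale of testing.

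CEBPG, which lacks an activation domain of its own and forms dimers with ATF4, was read by 2 probe sets. The centred values were -0.89, -0.94 and -1.07 in LP-1/Cfz and -0.76, -0.79 and -0.79 in LP-1 on 204203_at, and -1.09, -1.06 and -1.15 against -0.92, -0.90 and -0.96 on 225527_at. The LP-1/Cfz arrays were the lower ones on both. The log2 fold changes were -0.19 and -0.17 (adjusted p = 0.138 and 0.116 by limma), and neither passed, nor did the gene (-0.18, adjusted p = 0.0553). After another quantile normalization of the 6 arrays, the gene value shrank to -0.03 (adjusted p = 0.707). Centring on array medians instead left it at -0.19 (adjusted p = 0.0538 by limma). The size of the CEBPG difference thus depended on which scaling was used.

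TRIB3, the tribbles gene that ATF4 and CHOP induce, fell on both probe sets while ATF4 and ATF3 rose. Probe set 218145_at read -0.33, -0.35 and -0.43 in LP-1/Cfz and 0.093, 0.032 and 0.036 in LP-1. Probe set 1555788_a_at read -0.38, -0.28 and -0.44 against 0.088, -0.0028 and 0.20. In each, all 3 LP-1/Cfz arrays lay below the parental ones. The log2 fold changes were -0.42 (standard error 0.0614, adjusted p = 0.00421 by limma) and -0.46 (standard error 0.0769, adjusted p = 0.00747), and they differed by 0.04. Dropping any of the 6 arrays left both calls in place (adjusted p up to 0.026 and 0.0361).

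TRIB1, which presents C/EBPα to COP1 for destruction, fell on 2 of its 3 probe sets. On 202241_at the values were -0.15, -0.17 and -0.29 in LP-1/Cfz and 0.20, 0.21 and 0.24 in LP-1, and on 239818_x_at they were -0.58, -0.40 and -0.69 against 0.051, 0.024 and 0.0028. The parental arrays were tightly grouped on both (SD 0.0174 and 0.0244, n = 3 each) and lay above every LP-1/Cfz array. The log2 fold changes were -0.42 (standard error 0.0638, adjusted p = 0.00505 by limma) and -0.58 (standard error 0.0818, adjusted p = 0.00348). The third probe set, 235641_at, was noisy in both groups, from 0.085 to 0.66 in LP-1/Cfz and from -0.017 to 0.52 in LP-1, with a standard error of 0.173, and it showed no difference that could be told from that spread (log2 fold change 0.08, adjusted p = 0.821). With it included, the gene value was -0.31 (standard error 0.0645, adjusted p = 0.0153 over genes). That gene call was lost without LP-1/Cfz replicate 1 (0.0534) and without LP-1 replicate 1 or 3 (0.0594 and 0.0642), and without probe sets whose names end in _s_at or _x_at the value was -0.17 (adjusted p = 0.278). The calls of the first 2 probe sets were kept whichever array was left out.

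TRIB2, a tribbles gene that also directs C/EBPα to degradation, fell on 1 of 2 probe sets. On 202478_at the values were -0.40, -0.53 and -0.50 in LP-1/Cfz and -0.019, -0.21 and -0.068 in LP-1. The groups did not overlap, and the log2 fold change was -0.38 (standard error 0.0746, adjusted p = 0.0157 by limma). The call was lost without LP-1 replicate 1 (adjusted p = 0.0693) or LP-1 replicate 3 (0.0697). On 202479_s_at, which ranged from -0.41 to -0.22 in LP-1/Cfz and from -0.30 to -0.19 in LP-1, groups overlapped and the log2 fold change was -0.10 (adjusted p = 0.486). The gene value of -0.24 passed at an adjusted p of 0.0437, and it did not pass without LP-1/Cfz replicate 2 or 3 (0.107 and 0.0933) or LP-1 replicate 1 or 3 (0.145 and 0.144), nor after another quantile normalization (0.0636).

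**Figure D2:**
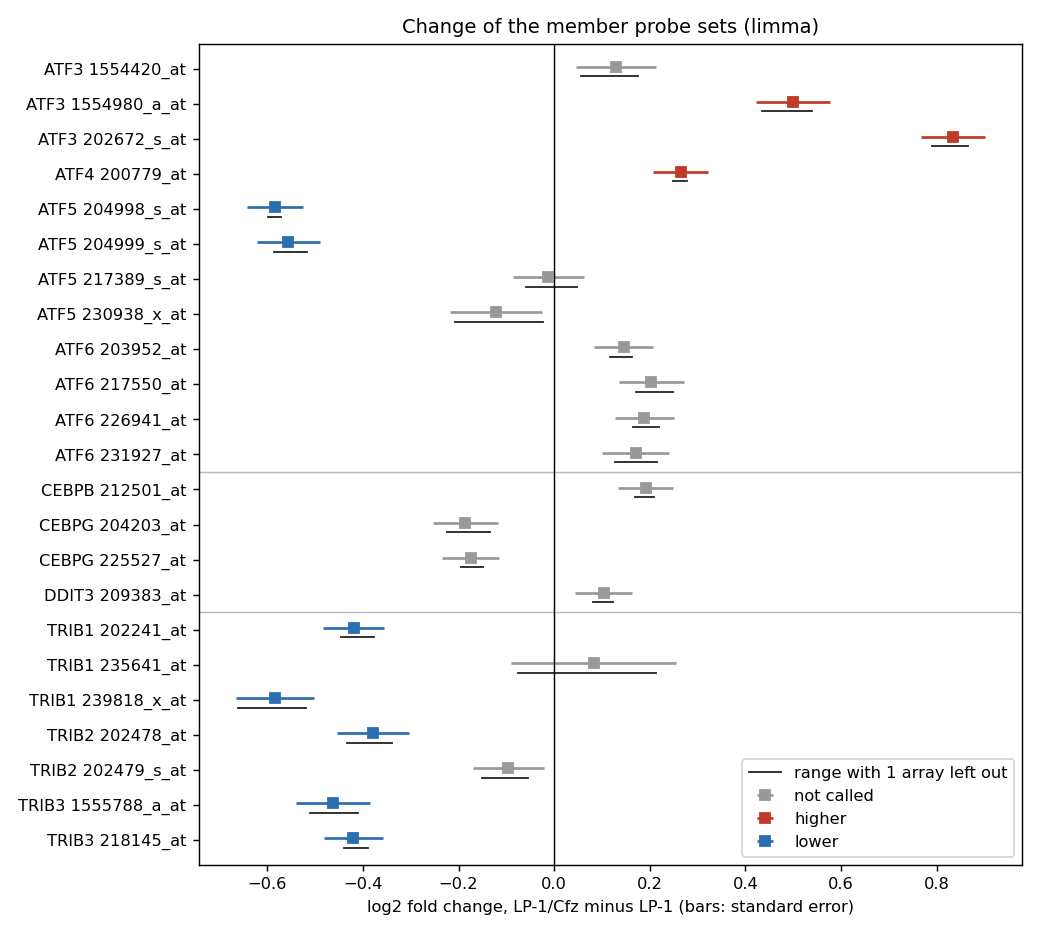
Log2 fold change of each member probe set (LP-1/Cfz minus LP-1, squares) with its limma standard error, and below each square the range of the value when 1 of the 6 arrays was left out. Red and blue mark probe sets that rose or fell at an adjusted p under 0.05 and grey those that did not pass, and the range of 2 grey probe sets, ATF5 217389_s_at and TRIB1 235641_at, crosses 0.

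At the gene level, 4 of the 10 members rose (ATF3, ATF4, ATF6 and CEBPB) and 4 fell (ATF5, TRIB1, TRIB2 and TRIB3), while CEBPG and DDIT3 did not pass. Over all genes, 6.72% rose and 10% fell, 16.7% in all. In this fit the rises of ATF3 and ATF4 and the falls of ATF5 and TRIB3 passed whichever of the 6 arrays was dropped. The calls of ATF6, CEBPB, TRIB1 and TRIB2 did not always hold, with the values given above. Without LP-1 replicate 1 or LP-1 replicate 3 the counts were 2 higher and 2 lower. For ATF4, the single probe set holds the same values, and its call was lost in 5 of those 6 fits (adjusted p up to 0.101 by limma). Against a minimum fold change of 1.2 none of the 10 genes passed, and 3 probe sets did, 1 of ATF3 and the 2 of ATF5 that fell.

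Upstream of ATF4 stand the kinases that phosphorylate eIF2α, its phosphatase and the eIF2B exchange factor. Of 18 such genes, all measured, 1 rose, 2 fell and 15 did not pass, so 3 of 18 were called where 16.7% of all genes were, a share equal to the background, with a median log2 fold change of -0.06 beside 0.017 over all genes. EIF2AK4, which encodes GCN2, the kinase that senses uncharged tRNA, had gene values of 0.86, 0.97 and 0.86 in LP-1/Cfz and 0.63, 0.61 and 0.65 in LP-1, and rose by 0.27 (adjusted p = 0.00994 by limma). GCN1, the ribosome-bound activator of GCN2, read 0.17, 0.11 and 0.07 against 0.53, 0.56 and 0.58 and fell by 0.44 (adjusted p = 0.000894). The kinase and its activator thus went opposite ways. EIF2B1, a subunit of eIF2B, had -0.17 (adjusted p = 0.0498), and its call was lost without any 1 of the 6 arrays (adjusted p from 0.0759 to 0.145).

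Downstream of ATF4, genes of amino acid supply split. Of 19 measured genes, 4 rose and 6 fell, where 6.72% and 10% of all genes did. The median log2 fold change was -0.08. SLC38A2, a transporter of small neutral amino acids, read 0.34, 0.30 and 0.18 in LP-1/Cfz and -0.26, -0.21 and -0.16 in LP-1 and rose by 0.48 (adjusted p = 0.00145 by limma). SLC7A11, the cystine transporter, rose by 0.80 and PYCR1, which makes proline, by 0.25 (adjusted p = 0.0129, and 0.0546 and 0.0617 without LP-1 replicate 1 or 3). PSAT1, of serine synthesis, fell by 1.72, with values of -1.20, -1.15 and -1.37 against 0.48, 0.50 and 0.47. ALDH1L2, a mitochondrial folate enzyme, fell by 0.43 (adjusted p = 0.0224), with all 3 LP-1/Cfz arrays below the parental ones, and CTH, which makes cysteine, fell by 0.40 (adjusted p = 0.04). The ALDH1L2 call was kept only without LP-1/Cfz replicate 2, with adjusted p values of 0.0534 to 0.0818 otherwise, and that of CTH only without LP-1/Cfz replicate 2 or LP-1 replicate 2, with 0.0732 to 0.133 otherwise.

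Aminoacyl-tRNA synthetases, which ATF4 also induces, gave 2 rises and no fall among 11 measured genes, with a median of 0.09. Over all genes 6.72% rose and 10% fell, 16.7% in all, so only the share called in either direction was near the background. GARS1, the synthetase for glycine, rose by 0.29 (adjusted p = 0.00729 by limma), from -0.10, -0.22 and -0.11 in LP-1 to 0.16, 0.16 and 0.13 in LP-1/Cfz. CARS1, that for cysteine, rose by 0.27 (adjusted p = 0.0124, and 0.0545 without LP-1 replicate 2). The 20 measured stress effectors of ATF4 and CHOP had 5 rises and 1 fall, beside those same shares over all genes, with a median of 0.11. INHBE, an inhibin subunit, rose by 1.68, from -0.72, -0.70 and -0.66 in LP-1 to 1.03, 1.02 and 0.90 in LP-1/Cfz. CHAC1, which breaks down glutathione, rose by 1.09 and SESN2, a brake on mTORC1, by 0.96, while EIF4EBP1, which restrains cap-dependent translation, fell by 0.36 (adjusted p = 0.00191). These 3 larger rises exceeded that of any member.

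Targets of ATF6 and XBP1, factors that build folding capacity, gave no rise. Of 24 measured genes, 6 fell and 18 did not pass, where 6.72% of all genes rose and 10% fell. The median was -0.10. HSPA5, the chaperone BiP and a classical ATF6 target, read -0.42, -0.55 and -0.44 in LP-1/Cfz and -0.13, -0.090 and -0.11 in LP-1 and fell by 0.36 (adjusted p = 0.00334 by limma). SEL1L, of the machinery that exports misfolded protein for degradation, fell by 0.56 (adjusted p = 0.000382), and DNAJB9, a cochaperone of BiP, by 0.33 (adjusted p = 0.00879). Each of these 3 genes had all LP-1/Cfz arrays below all parental arrays. ATF6 itself, by contrast, had a difference of 0.18 in the other direction, near the threshold as described above. HERPUD1 is in this list and in that of the stress effectors. XBP1 is also among the other bZIP factors below, and DNAJC3 among the genes upstream of ATF4.

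Among 40 other bZIP factors that were measured, which include possible dimer partners of the members, 5 rose, 6 fell and 29 did not pass (median 0.04). The shares that rose and fell over all genes were 6.72% and 10%. BACH2, a repressor of B-cell differentiation towards plasma cells, fell by 0.77, with values of -0.45, -0.30 and -0.48 against 0.32, 0.48 and 0.29 (adjusted p = 0.000371 by limma). NFIL3, a repressor of the same family, read 0.19, 0.21 and 0.18 in LP-1/Cfz and 0.89, 0.84 and 0.94 in LP-1 and fell by 0.70 (adjusted p = 8.12e-05). CREB3L4, a membrane-bound relative of ATF6, fell by 0.44 (adjusted p = 0.00275), and CREB3L2, another such relative, rose by 0.36 (adjusted p = 0.00426). CREB5 rose by 0.42 (adjusted p = 0.00735) and JUN, a subunit of AP-1 that can pair with ATF3, by 0.32 (adjusted p = 0.00865, and 0.156 without probe sets whose names end in _s_at or _x_at).

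Of 14 measured partners of tribbles proteins, 5 rose and none fell (median 0.05), beside 6.72% and 10% of all genes. CUL4B, a scaffold of ubiquitin ligases that can hold COP1, read 0.79, 0.80 and 0.65 in LP-1/Cfz and -0.01, -0.04 and 0.03 in LP-1 and rose by 0.75 (adjusted p = 0.00012 by limma). FOXO3, a transcription factor that TRIB2 is known to restrain, rose by 0.41 (adjusted p = 0.00141), and ACACA, the acetyl-CoA carboxylase that TRIB3 brings to COP1, by 0.27 (adjusted p = 0.00844). For these 3 genes the groups did not overlap. CEBPA is in this list and in that of other bZIP factors. The stress effectors share PPP1R15A with the genes upstream of ATF4 and JDP2 with the other bZIP factors. Over all 7 lists, with shared genes counted once, 21 of 140 measured genes rose and 21 fell, where 6.72% and 10% of all genes did. Without LP-1 replicate 1 or LP-1 replicate 3 the number of list genes that fell was 13. The lists, like the members, were chosen with earlier results of these data known.

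**Figure D3:**
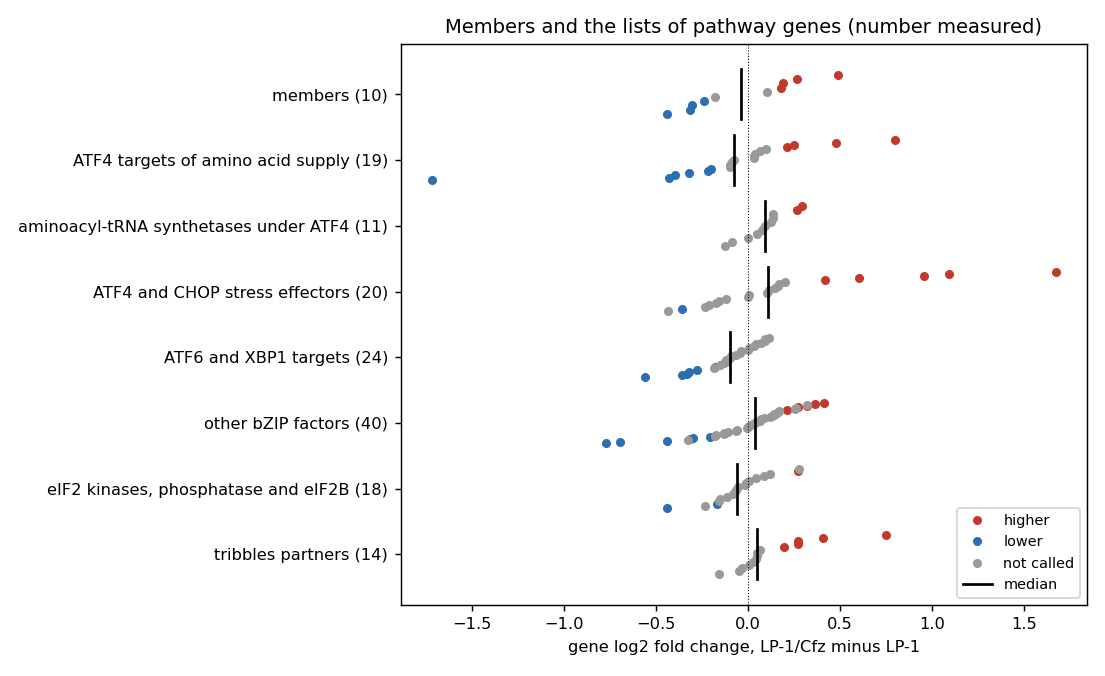
Gene log2 fold changes (LP-1/Cfz minus LP-1) of the 10 members and of 7 lists of related genes, 1 point per measured gene, sorted within each row. Red and blue points rose or fell at an adjusted p under 0.05, grey points did not pass, and black ticks are medians, which ran from -0.10 for ATF6 and XBP1 targets to 0.11 for the stress effectors.

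The genes next to the members on their chromosomes were counted as well. For each member, the 5 measured genes on either side in the order of the RefSeq table were taken, 100 in all, of which 5 rose and 11 fell. Over all genes 6.72% rose and 10% fell, so both counts were near the background. The median log2 fold change of the 10 neighbours was -0.06 around ATF3 on chromosome 1, 0.01 around ATF4 on chromosome 22 and -0.001 around TRIB3 on chromosome 20. Around DDIT3 on chromosome 12, where INHBE is one of the 2 neighbours that rose, it was 0.01. Around ATF5 on chromosome 19, where 3 of 10 neighbours fell, it was -0.10, against -0.32 for ATF5 itself. CEBPG lies elsewhere on chromosome 19 and had neighbours at a median of 0.11 against its own -0.18.

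Most markers of other cell types did not pass the test. Of 6 stromal and 5 myeloid markers measured, none rose or fell, where 16.7% of all genes did. Their medians were 0.03 and 0.02. Of 7 markers of T and NK cells, CD8A had a rise of 0.34 (adjusted p = 0.0401, lost without any array other than LP-1/Cfz replicate 2, with values up to 0.133) and GNLY a fall of 0.30 (adjusted p = 0.0134, and 0.0532 and 0.058 without LP-1 replicate 1 or 2). Among 9 plasma cell markers, MZB1 rose by 0.39, SDC1 by 0.38 and TNFRSF17 by 0.27 (adjusted p = 0.00182, 0.00243 and 0.0123, the last being 0.0513 and 0.0503 without LP-1 replicate 2 or 3), while the surface proteins SLAMF7 and CD38 fell by 2.17 and 1.07. The part of these markers in the member values was not tested.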

How the data were processed

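Affymetrix arrays of 3 parental and 3 resistant samples were run by a service laboratory. The values that the authors deposited are on the log2 scale and cover 54613 probe sets. RMA is named in the submitters' processing notes, with its version not given in the sources used here. Values are centred per probe set on an unstated baseline. The median over the 6 arrays was 0 (within 1e-06) for 7.62% of probe sets and for 4 of the 23 member probe sets, where equal values of opposite sign occur. Centring leaves differences between arrays intact but removes levels, so that no filter on dim probe sets was possible.

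Probe sets were named through the array annotation. Of these, 41091 name 1 gene, 1801 several and 11721 none, and 41037 matched a RefSeq gene identifier. Groups came from the sample titles, and all samples were used. The groups were tested with limma 3.58.1 under R 4.3.3 (lmFit and eBayes, no covariate, Benjamini-Hochberg adjustment, adjusted p under 0.05), over probe sets and over genes. Genes are means of their single-gene probe sets, since centred values do not rank probe sets by level.

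Named genes are all members and, in each list, up to 3 genes called in each direction with the largest change. Members and lists were chosen with earlier results of these data known. On simulated data for this comparison, the test called 0%, 46%, 84% and 98% of the altered probe sets at simulated folds of 1.2, 1.5, 2 and 3 among 54613, with 4 false calls. Over 19775 genes the shares were 32%, 78%, 98% and 100%, with 3 false calls. The number of arrays limits the precision. Alternatives were a replicate block, leaving out each array, 2 further normalizations, array weights, a robust variance prior, a minimum fold change of 1.2 and other choices of probe sets. Motifs were searched with Python 3.11.15.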

Additional observations from a re-analysis of the deposited data

How the results depend on the processing

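Over 67 single results (probe sets and genes named) and their alternatives, 788 of 905 values kept their direction and side of the threshold, 110 lost the call, 2 gained it and 5 changed sign. The sign changes were of 2 probe sets that had not passed. ATF5 217389_s_at ran from -0.0585 to 0.048 with 1 array left out, and TRIB1 235641_at from -0.0752 to 0.214, with -0.0638 under array weights. Array weights also brought CEBPB 212501_at (adjusted p = 0.0449) and the CEBPG gene (0.0476) past the threshold. Probe sets of members called higher numbered 2 to 3 and called lower 6 to 7 with 1 array left out, and member genes 2 to 4 higher and 2 to 4 lower. Over all probe sets these fits gave 1291 to 2356 higher and 2062 to 3081 lower, over all genes 823 to 1439 and 1230 to 1755, and over the lists 16 to 21 and 13 to 19. Against a minimum fold change of 1.2, 1 member probe set was higher and 2 lower, 0 member genes passed in either direction, 443 and 869 of all probe sets, 215 and 409 of all genes, and 5 and 4 genes of the lists. With the probe set of the largest variance in place of the mean, 2 member genes were higher. Without probe sets ending in _s_at or _x_at, 2 member genes were higher and 2 lower, 865 of all genes were higher and 12 genes of the lists. All 4 ATF5 probe sets end so, and its fall could not be checked in that setting, while TRIB1 lost its call there (adjusted p = 0.278 by limma). The cause of the other changes was not tested. The values gave no clear sign that replicate numbers pair the samples, which does not show that they were unpaired. Deviations of same-numbered arrays from their group means correlated at -0.05, 0.13 and -0.01 across probe sets, and not every array correlated best with its own number. With the replicate number as a block, 2 member genes were called higher and 4 lower, and 2 member probe sets higher and 7 lower, the calls lost being those of ATF4 200779_at (adjusted p = 0.0677) and of the genes ATF6 (0.103), CEBPB (0.0798), CTH (0.0718) and EIF2B1 (0.11), and no other call of those 67 changed. The signal over background is unknown for centred values.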
